A study of Mus musculus with 3 samples.

Results

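Mitochondrial ribosomal protein genes were taken as all genes whose symbol begins with Mrpl or Mrps followed by a digit and that have at least 1 transcript annotated as protein_coding. The rule found 78 genes, among 22028 protein-coding genes and 55536 annotated genes in all, and it used names and annotation only, not measured values. By their place in the mammalian mitochondrial ribosome, 30 encode large-subunit proteins with a bacterial homologue and 21 encode large-subunit proteins found only in mitochondria. A further 16 encode small-subunit proteins with a bacterial homologue and 10 encode mitochondria-specific small-subunit proteins. The last, Mrps36, carries the family name but is absent from ribosome structures and is known as a subunit of the 2-oxoglutarate dehydrogenase complex. The 78 genes lie on 17 chromosomes, with the most, 11, on chromosome 11.

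The mitochondrial ribosome translates the few mRNAs of the mitochondrial genome, all of which encode subunits of the respiratory chain or of ATP synthase. Its rRNAs are transcribed inside the organelle, while its proteins are encoded in the nucleus, made on cytosolic ribosomes and imported. Assembly therefore draws on many nuclear mRNAs in the cytosol, and defects in several of these genes cause respiratory chain deficiency in humans.

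The data were total RNA-seq of the cytosolic fraction of primary macrophages grown from bone marrow of C57BL/6J mice. All 3 libraries formed 1 group. The cells were exposed to 100 ng/ml lipid A, the part of bacterial lipopolysaccharide that TLR4 recognises, for 12 h, then kept without it for 12 h, and then exposed again to 100 ng/ml lipid A for 30 min. The libraries were labelled as biological replicates 1, 2 and 3, each made from 1 µg of ribosome-depleted RNA, and all named the same donor entry; sex and age were not collected. With no untreated library, no singly exposed library and no nuclear fraction analysed here, all values describe levels in this single state and none describes a response to lipid A. The labels do not say whether the replicates came from separate cultures, so tests between libraries measure only how far these 3 samples lie apart, and that distance may be technical.

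The libraries held between 28759407 and 54709008 expected counts in annotated genes, with replicate 1 the shallowest. All 12 macrophage markers examined were detected at 1 TPM (transcripts in each 1000000) or more in every library, with summed levels of 8894 to 9685 TPM. Of markers of other cells, 2 of 6 neutrophil genes, 1 of 4 B cell genes, 0 of 4 T and NK cell genes, 0 of 4 dendritic cell genes, 0 of 5 stromal and endothelial genes and 0 of 5 mast and erythroid genes were detected. Nuclear protein-coding genes together held 278890 to 299610 of the 1000000 TPM of a library.

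All 78 mitochondrial ribosomal protein genes were detected at 1 TPM or more in each of the 3 libraries, against 41.2% of all protein-coding genes. The levels were moderate and spanned 22.5-fold, with mean levels of 3.32 TPM for Mrps27 to 74.5 TPM for Mrps21 and a median of 12.1 TPM. The middle of the distribution was narrow: the lower and upper quartiles stood at 7.50 and 17.5 TPM, 47 genes had a mean of at least 10 TPM, 14 had at least 20 TPM and 8 were below 5 TPM. The expected counts behind these levels ran from 93 for Mrps28 in replicate 1 to 2191 at the most. In bulk RNA, fewer cells expressing a gene and less RNA per cell cannot be told apart.

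The order of the levels was nearly the same in every library. Spearman's rho across the 78 genes was 0.969 between replicates 1 and 2, 0.965 between replicates 1 and 3 and 0.985 between replicates 2 and 3, as a description across genes that share each library's depth. The coefficient of variation of a gene's TPM over the 3 libraries had a median of 9.13% and ranged from 0.333% for Mrpl10 to 24.0% for Mrpl23. Neighbours in this order could hardly be told apart: of 77 neighbouring pairs, 1 pair, Mrpl46 above Mrps26, differed with the same sign in every library and by more than 3 SD on the log2(TPM + 1) scale (difference 0.05 ± 0.02, SD of 3 libraries). Neighbours have the closest means by construction, so this count says little about genes further apart in the order. Steps between neighbours were mostly not resolved by these data.

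**Figure D1:**
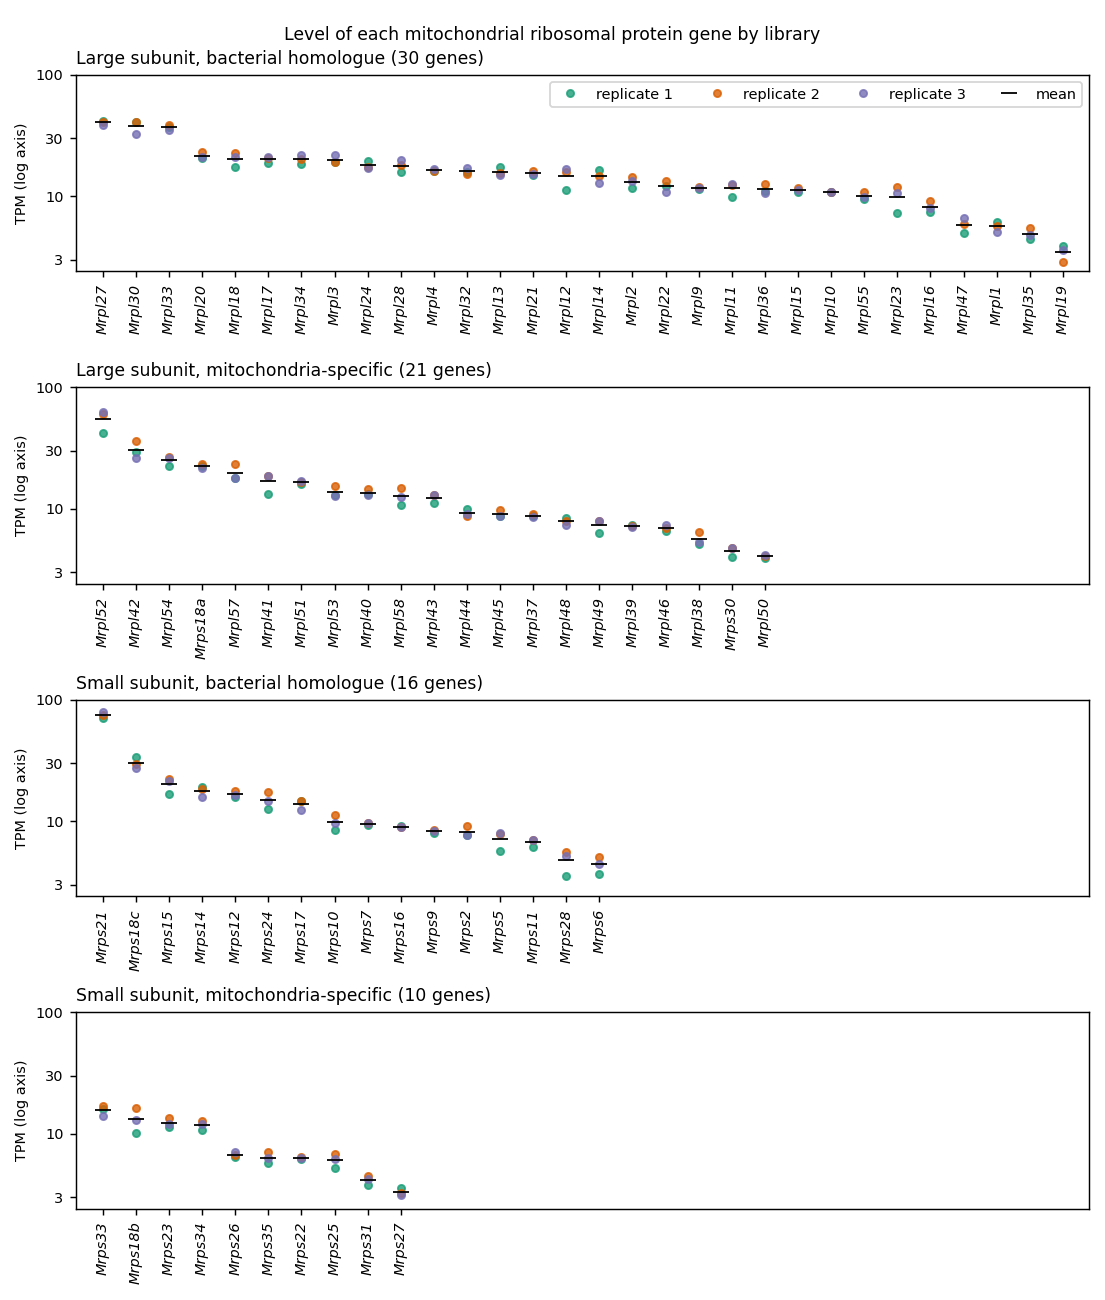
Level of 77 mitochondrial ribosomal protein genes in TPM (log axis) in 4 structural groups, each gene in order of its mean; points are the 3 libraries and the bar is their mean. Mrps36, which is not in ribosome structures, is left out. Mrps21 stands highest at 70.3 to 78.9 TPM, and most genes lie between 5 and 20 TPM with overlapping libraries.

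Among large-subunit genes with a bacterial homologue, Mrpl27, Mrpl30 and Mrpl33 stood apart from the rest. Mrpl27, whose protein (bL27m) has a bacterial counterpart near the peptidyl transferase centre, had 41.7, 41.0 and 38.5 TPM in replicates 1, 2 and 3. Mrpl30 (uL30m) had 40.4, 40.4 and 32.6 TPM, and Mrpl33 (bL33m) had 37.1, 38.3 and 35.0 TPM. The range of Mrpl30 overlapped those of the other two, while Mrpl27 was above Mrpl33 in every library, and each of the 3 was above the next gene of the group, Mrpl20 (bL20m), whose bacterial counterpart binds the large rRNA early in assembly, which had 20.6, 22.9 and 21 TPM. The lowest of the group were Mrpl35 at 4.46, 5.46 and 4.81 TPM and Mrpl19 at 3.89, 2.84 and 3.61 TPM. The group's median level was 14.1 ± 0.727 TPM (SD of the medians of 3 libraries).

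The mRNAs for proteins of the L7/L12 stalk, which recruits translation factors, were at middle levels. Mrpl12, the stalk protein itself (bL12m), had 11.2, 15.9 and 16.8 TPM, lowest in replicate 1. Mrpl10, on which the stalk protein sits (uL10m), had 10.8, 10.8 and 10.9 TPM, the smallest coefficient of variation of TPM among the members. The difference Mrpl12 minus Mrpl10 was 0.38 ± 0.29 on the log2(TPM + 1) scale (SD of 3 libraries), which was within 3 SD of 0.

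Mitochondria-specific large-subunit genes ran from Mrpl52 at the top to Mrpl50 at the bottom. Mrpl52 (mL52) had 42.1, 60.4 and 62.1 TPM, with replicate 1 well below the others. Mrpl42 (mL42) had 29.2, 36.2 and 26.2 TPM and was highest in replicate 2, and Mrpl54 (mL54) had 22.6, 26.3 and 25.9 TPM. Mrps30, which despite its name encodes a large-subunit protein (mL65), had 4.01, 4.71 and 4.77 TPM, and Mrpl50 had 3.93, 4.09 and 4.18 TPM. The ranges of these last 2 genes overlapped, with Mrps30 above Mrpl50 in every library.

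Within that group, genes with a known special function were at middle levels. Mrpl41 (mL41), also described as a partner of BCL2 in human cells, had 13.2, 18.5 and 18.4 TPM. Mrpl58, a peptidyl-tRNA hydrolase that acts on stalled ribosomes and was built into the large subunit (mL62), had 10.7, 14.7 and 12.5 TPM. Mrpl44, which has a ribonuclease III-like fold (mL44), had 9.87, 8.72 and 9.07 TPM, and Mrpl45, which ties the tunnel exit to the inner membrane (mL45), had 8.73, 9.76 and 8.73 TPM. Mrpl44 and Mrpl45 overlapped, and both were below Mrpl58 in every library.

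Among small-subunit genes with a bacterial homologue, Mrps21 was higher than any other member in all 3 libraries, at 70.3, 74.3 and 78.9 TPM. Its protein is bS21m, whose bacterial counterpart joins the platform of the small subunit late in assembly. Mrps21 lies on chr3:95862634-95871519 on the minus strand (mm10), and its most abundant transcript is 488 bases long. Mrps15 (uS15m) had 16.8, 22.2 and 21.2 TPM, Mrps14 (uS14m) had 19.2, 18.5 and 15.7 TPM, and Mrps12, the protein of the decoding centre (uS12m), had 15.8, 17.6 and 16.5 TPM. These 3 genes overlapped in level. At the low end, Mrps28, the counterpart of bacterial S1 (bS1m), had 3.52, 5.54 and 5.19 TPM, and Mrps6 (bS6m) had 3.70, 5.11 and 4.42 TPM.

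In the structure, bS6m pairs with bS18m, the product of Mrps18c, yet the 2 mRNAs were at very different levels. Mrps6 was lower than Mrps18c by 2.53 ± 0.31 on the log2(TPM + 1) scale (SD of 3 libraries, lower in 3 of 3).

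Mitochondria-specific small-subunit genes were the lowest structural group, with a median of 6.64 ± 0.315 TPM (SD of 3 libraries). Mrps33 (mS33) had 16.0, 16.9 and 14.1 TPM, Mrps23 (mS23) had 11.3, 13.5 and 12.0 TPM, and Mrps34 (mS34), needed for stability of the small subunit, had 10.8, 12.8 and 12.0 TPM. Below them stood Mrps31 at 3.75, 4.46 and 4.25 TPM and Mrps27, a pentatricopeptide repeat protein, at 3.55, 3.26 and 3.14 TPM. Mrps27 was the lowest member on average, although Mrps28 was lower in replicate 1 and Mrpl19 in replicate 2.

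The mammalian S18 family has 3 paralogues that occupy different sites, 1 in the large and 2 in the small subunit. Mrps18c, which takes the site of bacterial S18 (bS18m), had 33.8, 29.3 and 27.4 TPM. Mrps18a, whose protein is in the large subunit (mL66), had 22.6, 23.4 and 21.5 TPM, and Mrps18b (mS40) had 10.1, 16.4 and 13.1 TPM. The order Mrps18c above Mrps18a above Mrps18b was the same in 3 of 3 libraries and the 3 ranges did not overlap. The steps were variable: Mrps18c exceeded Mrps18a by 0.40 ± 0.14 and Mrps18a exceeded Mrps18b by 0.75 ± 0.31 on the log2(TPM + 1) scale (SD of 3 libraries), neither by more than 3 SD.

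Mrps36 had 19.4, 19.6 and 16.4 TPM, a mean of 18.5 ± 1.80 TPM (SD, n = 3), above the upper quartile of the members. Of 5 mitoribosomal protein genes with other symbols, 4 lay within the members' range of mean levels. Chchd1 (mS37) had 27.3 ± 4.16 TPM, Aurkaip1 (mS38) had 21.9 ± 2.37 TPM, Dap3 (mS29), a GTP-binding protein first described in cell death, had 9.82 ± 1.04 TPM, Ptcd3 (mS39), at the mRNA entry, had 3.91 ± 0.283 TPM, and Gadd45gip1 (mL64) had 2.65 ± 0.347 TPM (SD, n = 3 each). The mean of Gadd45gip1 was thus below that of every member.

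Large-subunit genes were higher than small-subunit genes as a list. The median level was 13.0 ± 1.49 TPM for the 51 large-subunit genes and 9.16 ± 0.309 TPM for the 26 small-subunit genes (SD of 3 libraries), and the difference of list medians on the log2(TPM + 1) scale was 0.36, 0.59 and 0.43 in replicates 1, 2 and 3. Its mean of 0.46 ± 0.12 was above 0 in 3 of 3 libraries and exceeded 3 SD, the limit used here in place of a p-value for list scores. Without replicate 3 it was 0.47 ± 0.16 and no longer exceeded 3 SD. The single highest member, Mrps21, nevertheless belongs to the small subunit. This SD is over libraries and does not measure the spread among genes. The quartiles of mean levels overlapped, at 8.9 and 18.8 TPM for large-subunit genes and 6.4 and 14.6 TPM for small-subunit genes. Genes with a bacterial homologue had a median of 13.0 ± 1.34 TPM and mitochondria-specific genes had a median of 9.57 ± 0.434 TPM. That difference of 0.40 ± 0.15 had the same sign in 3 of 3 libraries but did not exceed 3 SD.

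Short mRNAs were higher. Spearman's rho between the mean level and the length of the most abundant transcript was -0.50 over the 78 genes and -0.19 over 9063 detected nuclear protein-coding genes, as a description across genes. The 6 members with a most abundant transcript under 500 bases had a median of 28.4 TPM, the 37 of 500 to 1000 bases 14.9 TPM, the 28 of 1000 to 2000 bases 9.63 TPM and the 7 of 2000 bases or more 5.62 TPM. TPM divides by length, so an error in the transcript assigned to a gene moves its level along the same axis.

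Set against other gene groups, mitochondrial ribosomal protein mRNAs were scarce next to cytosolic ribosomal protein mRNAs and common next to the factors that build and run the mitochondrial ribosome. The median of the 78 members was 12.1 ± 0.985 TPM, against 187 ± 17.6 TPM for 77 cytosolic ribosomal protein genes (SD of 3 libraries). The difference was -3.84 ± 0.13 on the log2(TPM + 1) scale, or 14.4-fold in TPM + 1. The 83 nuclear subunits of respiratory complexes and ATP synthase had a median of 43.8 ± 1.01 TPM, and members were lower by a difference of -1.78 ± 0.13. The 13 mRNAs of the mitochondrial genome had a median of 106 ± 24.3 TPM, and members were lower by a difference of -3.01 ± 0.31. Among these mRNAs mt-Co2 was listed at 0 in replicates 1 and 3, and mt-Co3 had 77.9, 18.8 and 134 TPM. The mean of mt-Atp6 was 24.1 TPM, against 104 TPM in the second set of deposited values, so single values of that list are uncertain. These mRNAs are made inside mitochondria, and how much of the organelle entered the cytosolic fraction was not tested. The difference is therefore one of this fraction and not of whole cells. All 3 differences had the same sign in 3 of 3 libraries and exceeded 3 SD. In sum, the 78 genes held 1084, 1207 and 1138 TPM in replicates 1, 2 and 3, which was 0.394 ± 0.0360% of the TPM of nuclear protein-coding genes (SD of 3 libraries).

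The mRNAs of factors of mitoribosome assembly and rRNA modification were lower than those of the proteins they assemble. The members exceeded the 26 assembly genes by 1.72 ± 0.17 on the log2(TPM + 1) scale (SD of 3 libraries, higher in 3 of 3), with medians of 12.1 TPM for members and 2.96 TPM for assembly genes. Of the 26, 23 were detected in every library. Rbfa, which matures the small subunit, was the highest at 16.1 ± 2.50 TPM, followed by the helicases Dhx30 at 12.1 ± 0.659 TPM and Ddx28 at 5.37 ± 0.0819 TPM, while the endoribonuclease Ybey at 0.623 ± 0.0153 TPM and the rRNA methyltransferase Mettl15 at 0.403 ± 0.0569 TPM were under 1 TPM (SD, n = 3 each).

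Mitochondrial translation factors were also lower, with 16 of 16 detected and a median of 4.29 ± 0.305 TPM, and members exceeded them by 1.31 ± 0.14 on the log2(TPM + 1) scale (SD of 3 libraries, higher in 3 of 3). Slirp, an RNA-binding partner of Lrpprc, stood out at 43.1, 42.9 and 31.0 TPM. The elongation factor Tufm had 12.4 ± 0.498 TPM and the insertase Oxa1l 10.03 ± 0.474 TPM, and the lowest were the release factor Mtrf1l at 1.79 ± 0.377 TPM and the formyltransferase Mtfmt at 1.76 ± 0.0802 TPM (SD, n = 3 each).

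Of 12 genes of mitochondrial transcription and genome upkeep, 8 were detected, led by the protease Lonp1 at 9.53 ± 0.649 TPM, Ssbp1 at 8.96 ± 0.932 TPM and the transcription factor Tfam at 5.16 ± 0.886 TPM (SD, n = 3 each). Polg2 at 0.760 ± 0.108 TPM and Mterf2 at 0.240 ± 0.142 TPM were the lowest of them. Of 9 nuclear regulators known to control mitochondrial genes, 8 were detected: Esrra had 9.91 ± 0.795 TPM, Yy1 had 7.15 ± 0.0361 TPM and Gabpa, an ETS factor also called NRF-2, had 6.57 ± 0.592 TPM. The coactivator Ppargc1b had 1.65 ± 0.258 TPM, while Ppargc1a had 0, 4 and 1 expected counts and was under 1 TPM in every library. The rRNAs of the mitochondrial ribosome cannot be read from these libraries, which were depleted of rRNA: mt-Rnr1 had 8.14, 1.60 and 4.22 TPM and mt-Rnr2 had 4.96, 0.880 and 1.95 TPM.

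**Figure D2:**
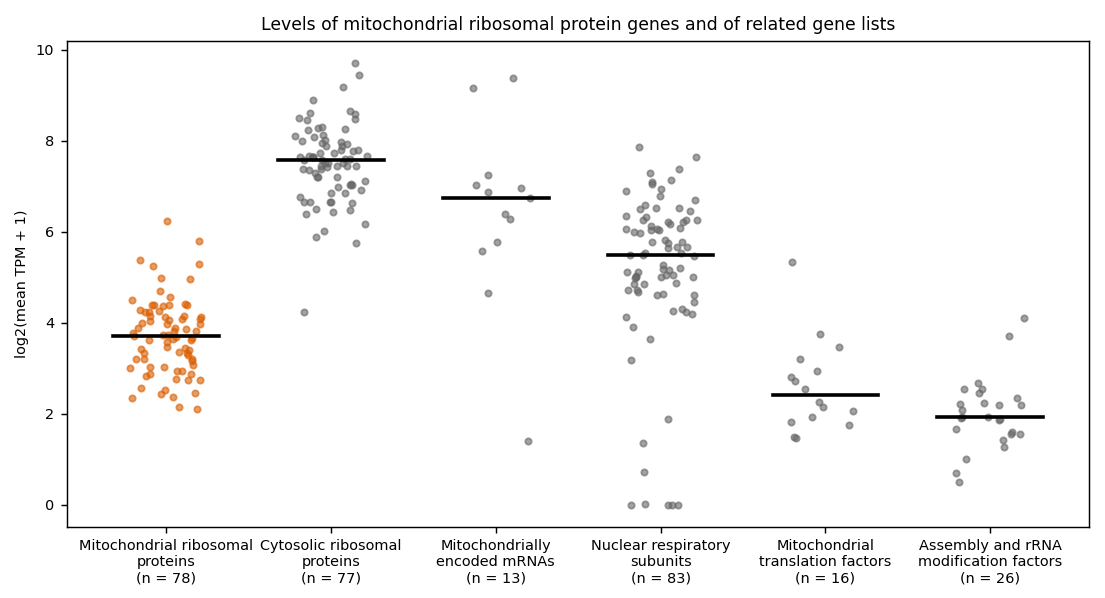
Levels of the mitochondrial ribosomal protein genes and of 5 related lists, as log2 of the mean TPM of 3 libraries plus 1; each point is a gene and the bar is the list's median. Members lie below cytosolic ribosomal proteins, mitochondrially encoded mRNAs and nuclear respiratory subunits, and above translation and assembly factors.

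Members differed little between the 3 libraries, but most did so by more than counting noise. The rounded expected counts were tested for homogeneity by chi-square, given TMM effective library sizes and with Benjamini-Hochberg adjustment over all genes tested. The test called 61 of 78 members at an adjusted p of 0.05 or less, against 66.2% of 13410 annotated genes. Without replicate 2 it called 31 members, 39.7%, against 44.3% of the genes tested. The count and its place above the background thus rest on that library. The background also holds genes of lower counts than the members, whose mean counts were 217 to 1587. At a mean count of 100 or more the test called 63 members, 80.8%, against 74.3% of the genes tested. No background matched to the members' counts was used, so the part of count depth in this excess was not tested. The ratio of the highest to the lowest scaled count had a median of 1.25 and was below 1.5 in 71 of 78 members. These ratios were not computed over other genes, so their small size cannot be read as particular to the members. The 6 largest ratios among called members were those of Mrps28 at 1.71, Mrps18b at 1.64, Mrpl52 at 1.61, Mrpl23 at 1.56, Mrpl12 at 1.53 and Mrpl41 at 1.52, with adjusted p of 7.14e-05 or less in this chi-square test. Scaled counts of Mrps28 were 146, 250.1 and 220.4, those of Mrps18b 619, 1018 and 808 and those of Mrpl52 612, 986 and 963 in replicates 1, 2 and 3, so replicate 1 was the low library in each. The 17 members that were not called included Mrpl33, Mrpl10, Mrpl44, Mrps12, Mrpl50, Mrpl19 and Mrps27.

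Most members moved together between libraries. The TMM-scaled count in replicate 2 was above the mean of the other libraries for 76 of 78 members, against 56.5% of all 13403 genes with a mean count of 10 or more and 60.0% of the protein-coding ones among them, with a median log2 ratio of 0.23 for members and 0.04 for all these genes. In replicate 1, 66 members were below the mean of the other libraries, against 51.2% of all genes and 51.8% of protein-coding genes, with a median of -0.16 for members and -0.01 for all genes. In replicate 3, 49 were below, against 51.9% of all genes and 55.3% of protein-coding genes, with a median of -0.04 for members and -0.01 for all genes. By gene, 70 members were highest in replicate 2 and 50 were lowest in replicate 1. The shares of all genes that were highest or lowest in a library were not computed. All 4 structural groups had their highest median in replicate 2, between 0.17 and 0.25.

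Other nuclear-encoded lists were also high in replicate 2, with different medians in the other libraries. Of 77 cytosolic ribosomal protein genes, 77 were above the mean of the others in replicate 2, with a median of 0.26, and 75 were below it in replicate 3, with a median of -0.24, while replicate 1 had a median of -0.01. Of 77 nuclear respiratory subunits with enough counts, 76 were higher in replicate 2, with a median of 0.17. Mitochondrially encoded mRNAs differed: 12 of 13 were higher in replicate 3, with a median of 0.64, and their median in replicate 2 was -0.09. Replicate 2 was the deepest library and replicate 1 the shallowest. The part of depth, culture, handling or organelle content of the fraction in these ratios was not tested. The spread beyond counting noise, as fitted by edgeR for each gene, was modest. The median biological coefficient of variation was 0.124 for members, 0.134 for 12646 genes and 0.128 for 4562 protein-coding genes in the members' range of counts. The fit draws each gene towards genes of like count, so the nearness of the first and last medians is partly built in.

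**Figure D3:**
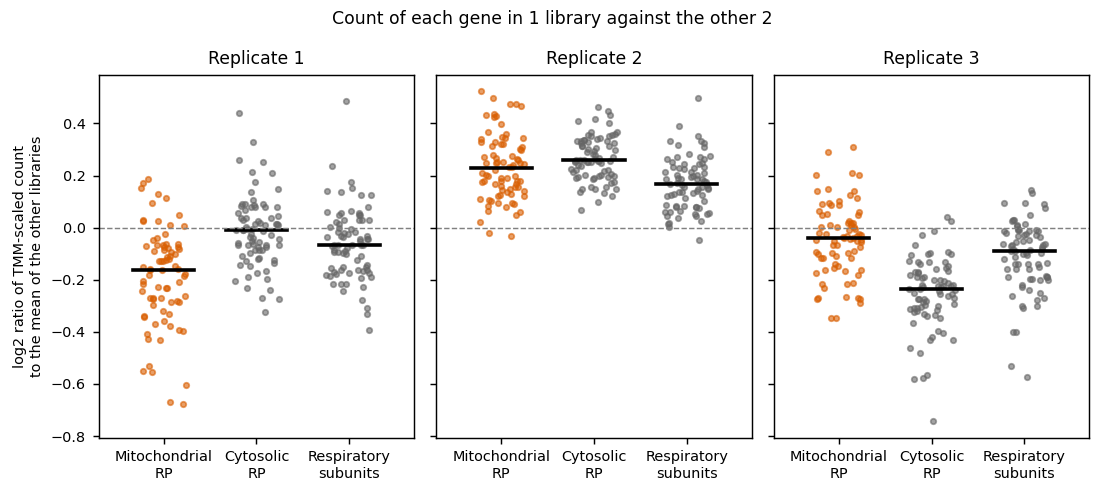
Log2 ratio of the TMM-scaled count of each gene in 1 library to the mean of the other libraries, for 78 mitochondrial ribosomal protein (RP) genes, 77 cytosolic RP genes and 77 nuclear respiratory subunits; bars are medians and the dashed line is 0. Members have medians of -0.16, 0.23 and -0.04 in replicates 1, 2 and 3, and cytosolic RP genes have -0.01, 0.26 and -0.24.

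For most members nearly all TPM was assigned to protein-coding transcripts. The protein_coding share of a gene's TPM had a median of 98.4%, was 90% or more in 56 genes and was below 50% in 13 genes. In 14 members the most abundant annotated transcript was not of type protein_coding: it was of type nonsense_mediated_decay in 5, processed_transcript in 5 and retained_intron in 4. For 11 of the 14, that transcript also held at least 50% of the gene's TPM in the second quantification that the authors deposited, in the kallisto layout. Such shares were not computed over all protein-coding genes, so none of these counts can be read as particular to the members.

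In most of the genes with the lowest protein-coding shares, a short non-coding model stood beside a long coding model. Mrpl57 (mL63) had 94.1 ± 0.253% of its TPM in Mrpl57-202, a retained_intron model of 519 bases, and 5.93 ± 0.253% in its only coding model, Mrpl57-201, of 2877 bases (SD, n = 3). Mrpl57-202 contains the whole coding sequence of 309 bases without a break. Mrps14 (uS14m) had 89.8 ± 0.109% in Mrps14-201, a nonsense_mediated_decay model of 674 bases that holds all 387 coding bases but not in 1 unbroken run, and 8.87 ± 0.597% in the 2999-base coding model Mrps14-203. Mrps26 (mS26) had 89.0 ± 2.22% in the retained_intron model Mrps26-201 of 1057 bases, which likewise holds all 603 coding bases with a break.

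Other members had a leading model that lacks part of the coding sequence. Mrpl32 (bL32m), whose maturation by the m-AAA protease gates ribosome assembly in mice, had 81.1 ± 7.40% of its TPM in the nonsense_mediated_decay model Mrpl32-201, which holds 96.6% of the coding bases. Mrps16 (bS16m) had 87.5 ± 1.27% in a processed_transcript model with 97.6% of the coding bases, and Mrps35 (mS35) had 79.2 ± 4.15% in a processed_transcript model of 467 bases with 35.3% of the coding bases. Mrpl3 (uL3m), near the peptidyl transferase centre, spread its TPM over 9 models. Its leading model, Mrpl3-204 of type nonsense_mediated_decay, had 43.8 ± 4.02% (SD, n = 3 each), and all its protein_coding models together had 14.6%. In 13 of the 14 genes the leading coding model was longer than the leading model. With reads shared between overlapping models, the split between a non-coding and a coding model is an estimate, and since TPM divides by model length, the level of these 14 genes rests on it.

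**Figure D4:**
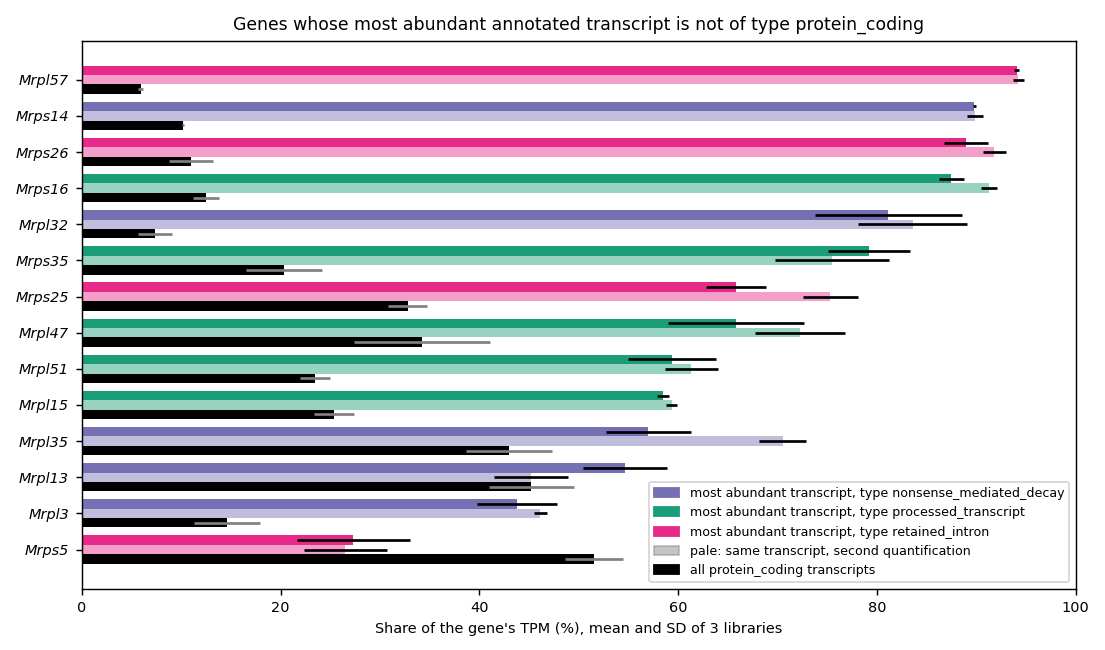
Share of a gene's TPM (%) in the most abundant transcript (coloured by its annotated type), in the same transcript in the second quantification (pale) and in all protein_coding transcripts (black), for the 14 members whose most abundant transcript is not protein_coding; bars are means and lines SD of 3 libraries. Mrpl57 has 94.1% in a retained_intron model and 5.93% in protein_coding models, and the first and second quantifications are close for most genes.

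The first and second quantifications ranked the members alike, except for Mrpl23. Spearman's rho between the mean levels was 0.976 over 78 genes and 0.987 without Mrpl23. TPM of the second quantification were lower, with a median ratio to the first of 0.357 to 0.535 over the libraries. After removal of this shift, Mrpl23 (uL23m), a protein of the tunnel exit, was lower in the second quantification by a difference of -2.19 on the log2 scale, with 0.882 ± 0.175 TPM there and 9.86 ± 2.36 TPM in the first (SD, n = 3 each). The next largest differences were 0.59 for Mrpl19, 0.43 for Mrps5, 0.34 for Mrpl35, -0.32 for Mrps12 and 0.27 for Mrpl48.

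Mrpl23 shares its sequence with a processed pseudogene, Mrpl23-ps1 on chromosome 2, which is identical to it over 540 aligned bases. Mrpl23 had 7.22, 11.8 and 10.6 TPM and the pseudogene had 8.58, 9.22 and 6.60 TPM in the first quantification, so the pseudogene took 47.4%, 40.5% and 34.8% of the counts of both in replicates 1, 2 and 3. In the second quantification Mrpl23 had 1.08, 0.836 and 0.735 TPM and the pseudogene had 7.17, 11.0 and 5.10 TPM. The posterior SD of the count, which the first quantification gives, reached 11.4% of the count for Mrpl23, 2.79% for Mrps25 and 1.42% for Mrpl47, and was at most 1% in every library for the other 75 members. The level of Mrpl23 and its ratio between libraries are therefore uncertain in these data. Of the other members, 18 had a copy with at least 95% identity over at least 200 bases and 80% of the shorter transcript, and only Mrpl53 shared more than 5% of the joint counts with one. That copy, Gm42688, is annotated as protein_coding and overlaps Mrpl53: it shares 695 exon bases with Mrpl53 on the same strand, 88.0% of the exon bases of Mrpl53, and had 48.8, 131 and 128 expected counts, against 286, 731 and 515 for Mrpl53.

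Members also overlap neighbours. Exon bases were shared with another annotated gene in 33 of 78 members, and with a gene on the opposite strand in 28. The same share over all genes was not computed, so these counts cannot be read as particular to the members. Whether counting used strand is not given in the sources used here, so reads in the shared exon bases may belong to either gene. The widest overlaps with a gene on the opposite strand were those of Mrps25, 69.8% of whose exon bases lie in exons of Nr2c2, and of Mrps34, 63.4% of whose exon bases lie in exons of Mapk8ip3. A pair of members overlaps in this way: Mrpl46 (mL46) and Mrps11 (uS11m) share 173 exon bases on opposite strands of chromosome 7 and had 6.98 ± 0.401 and 6.70 ± 0.508 TPM (SD, n = 3 each), a difference of 0.05 ± 0.05 on the log2(TPM + 1) scale, with no common sign over the libraries.

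Promoter windows of 250 bases before to 50 bases after the start were found in the RefSeq table (GRCm38.p6) for 69 of the 78 members. For each gene the window nearest the start of its most abundant transcript was taken. The farthest lay 8247 bases from that start in Mrps5, 8121 in Mrps25, 4142 in Mrpl47 and 3458 in Mrpl30. Such windows may not be the promoter of the transcript measured. Promoters of mitochondrial genes are known for binding sites of ETS factors such as GABPA, of NRF1 and of YY1. The members' windows were searched for these motifs. The motif CCGGAAG of ETS factors was present on either strand in 25 of 69 members, 36.2%, against 22.3% of 7272 detected and 12.5% of 16499 nuclear protein-coding genes. The NRF1 motif was in 13 members, 18.8%, against 12.3% and 6.85%. The YY1 motif AAGATGGCG was in 8 members, 11.6%, against 4.10% and 2.09%. In related lists the ETS motif was in 38.6% of 57 cytosolic ribosomal protein genes and 25.4% of 63 nuclear respiratory subunits, the NRF1 motif in 8.77% and 23.8%, and the YY1 motif in 5.26% and 11.1% of these lists. At least 1 of the ETS, NRF1 and YY1 motifs was in 40 members, 58.0%, against 34.5% and 19.4%, and no member had all 3. The Sp1 motif GGGCGG was in 49.3% of members, against 67.5% of detected and 48.5% of all genes, the TATA box TATAAA in 5.80%, against 6.57% and 12.8%, and the E-box CACGTG in 7.25%, against 11.1% and 8.06%. Members with an ETS motif had a median level of 16.5 TPM and those without 9.81 TPM, with wide overlap between 3.32 and 74.5 TPM and between 4.07 and 37.8 TPM. For the NRF1 motif the medians were 14.6 TPM with and 12.3 TPM without it, and for the YY1 motif 10.03 TPM with and 12.6 TPM without it. These matches are a description of the windows and show no binding.

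The windows of 4 members are given 5′ to 3′ on the gene's strand, with the letters of ETS, NRF1 and YY1 motifs, in either orientation, in capitals. They are the highest members, Mrps21 and Mrpl52, the lowest, Mrps27, and Mrps12, which shares its upstream region with Sars2. The Mrps21 window, chr3:95871465-95871764 on the minus strand, holds 1 NRF1 and 1 ETS motif. The Mrpl52 window, chr14:54426659-54426958 on the plus strand, holds 2 ETS motifs. The Mrps27 window, chr13:99344536-99344835 on the plus strand, holds 1 ETS and 1 YY1 motif, and the Mrps12 window, chr7:28741772-28742071 on the minus strand, holds 1 ETS motif. An ETS motif thus stood in the window of both the highest and the lowest member.
Mrps21: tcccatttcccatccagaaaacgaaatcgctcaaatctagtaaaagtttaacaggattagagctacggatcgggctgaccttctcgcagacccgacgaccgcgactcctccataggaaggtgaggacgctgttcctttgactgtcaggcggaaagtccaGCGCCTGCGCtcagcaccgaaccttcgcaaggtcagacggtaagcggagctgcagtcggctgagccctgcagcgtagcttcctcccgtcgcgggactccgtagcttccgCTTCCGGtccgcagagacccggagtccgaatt
Mrpl52: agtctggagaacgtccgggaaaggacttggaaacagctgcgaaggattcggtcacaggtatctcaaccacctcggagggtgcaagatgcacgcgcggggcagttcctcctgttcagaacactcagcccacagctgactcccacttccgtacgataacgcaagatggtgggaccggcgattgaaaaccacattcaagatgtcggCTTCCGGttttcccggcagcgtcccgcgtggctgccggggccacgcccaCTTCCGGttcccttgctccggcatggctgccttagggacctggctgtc
Mrps27: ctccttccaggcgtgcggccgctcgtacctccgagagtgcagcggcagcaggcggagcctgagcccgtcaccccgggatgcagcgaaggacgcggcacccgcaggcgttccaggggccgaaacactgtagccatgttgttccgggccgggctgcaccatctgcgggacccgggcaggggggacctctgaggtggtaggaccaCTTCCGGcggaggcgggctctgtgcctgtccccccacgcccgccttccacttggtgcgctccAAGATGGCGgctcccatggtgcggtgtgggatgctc
Mrps12: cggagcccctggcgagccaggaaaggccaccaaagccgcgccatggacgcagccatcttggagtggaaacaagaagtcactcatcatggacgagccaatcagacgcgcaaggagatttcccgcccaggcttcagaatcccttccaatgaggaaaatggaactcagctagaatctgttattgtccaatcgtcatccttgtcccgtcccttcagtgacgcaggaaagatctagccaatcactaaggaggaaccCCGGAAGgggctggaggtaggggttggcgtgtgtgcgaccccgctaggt

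Members often start close to another gene. For 18 of 78 members, 23.1%, a protein-coding gene on the opposite strand starts within 1 kb upstream, a head-to-head arrangement, against 11.7% of 9068 detected and 6.76% of 22015 nuclear protein-coding genes. The gap was 26 to 935 bases. Of the 18 neighbours, 11 were detected at 1 TPM or more in every library, 61.1%, against 41.2% of all protein-coding genes. Sharing the gap did not mean sharing a level in most of these pairs. In 16 of 18 pairs the 2 genes differed with the same sign in 3 of 3 libraries and by more than 3 SD. The member was higher in 13 of these. Such shares were not computed over other head-to-head pairs or unrelated genes, so these counts cannot be read as particular to the members.

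Mrps12 starts 172 bases from Sars2, the mitochondrial seryl-tRNA synthetase, and had 15.8, 17.6 and 16.5 TPM, against 1.76, 2.16 and 1.78 TPM for Sars2. Both products serve mitochondrial translation, and Mrps12 was higher by 2.60 ± 0.05 on the log2(TPM + 1) scale (SD of 3 libraries). Mrps27 starts 81 bases from Ptcd2, another pentatricopeptide repeat gene of mitochondrial RNA, and was lower than it, at 3.32 ± 0.211 TPM, against 10.3 ± 0.690 TPM for Ptcd2 (SD, n = 3 each). Mrpl49 starts 59 bases from Fau, which encodes the cytosolic ribosomal protein eS30, and the 2 ribosomal genes had 7.37 ± 0.933 TPM for Mrpl49, against 425 ± 8.13 TPM for Fau, a difference of -5.68 ± 0.18. Mrpl32 starts 75 bases from the proteasome gene Psma2 and was also the lower one, at 16.0 ± 1.08 TPM, against 32.1 ± 1.39 TPM. At the other extreme Mrpl57 had 19.6 ± 3.18 TPM beside the kinetochore gene Ska3 at 0.323 ± 0.0751 TPM, and Mrps18c had 30.2 ± 3.30 TPM beside the helicase gene Helq at 0.970 ± 0.139 TPM. Mrps18b and Ppp1r10, and Mrpl41 and Pnpla7, did not differ by more than 3 SD, with differences of 0.24 ± 0.39 and -0.02 ± 0.34.

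**Figure D5:**
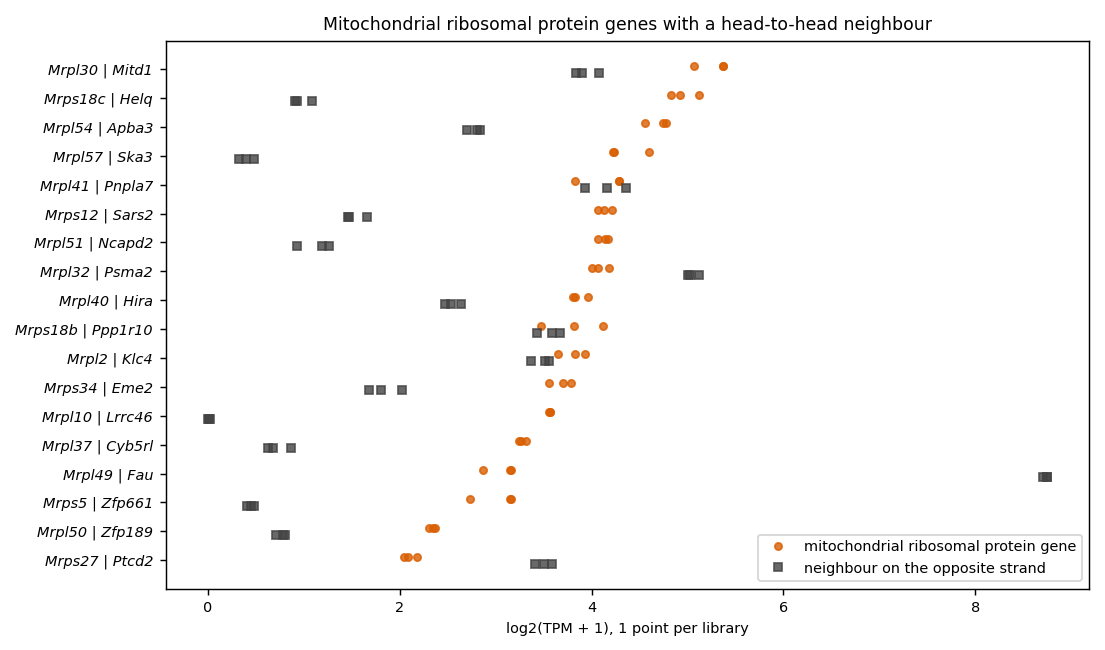
Levels, as log2(TPM + 1), of 18 members and of the protein-coding gene that starts within 1 kb upstream on the opposite strand; each point is 1 of 3 libraries. The member lies above its neighbour in all libraries in 13 pairs and below it in 3, Mrpl32, Mrpl49 and Mrps27.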

How the data were processed

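Total RNA of the cytosolic fraction of 3 libraries of 1 group was analysed; separately treated or untreated cells were not analysed here. Per the file headers, the authors deposited, for each library, gene and transcript tables in the RSEM layout, with expected counts, TPM (a relative abundance that divides by transcript length) and posterior SDs of the counts (used as a score), and a transcript table in the kallisto layout with estimated counts and TPM, called the second quantification. The aligner, the program versions and the strand setting of counting were not given in the sources used here; per the labels, the build is mm10 with GENCODE M21. The libraries held 28759407, 54709008 and 49878183 expected counts in replicates 1, 2 and 3, and 0.167% to 0.774% more in rows of no annotated gene, which were left out.

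A gene was called detected at 1 TPM or more in every library. Lists were compared by the difference of their medians of log2(TPM + 1) within each library, which holds where the sign is the same in 3 of 3 libraries and the mean exceeds 3 SD; list scores got no p-value. Expected counts, rounded to whole numbers, were tested between libraries by a chi-square test of homogeneity with edgeR 4.0.16 TMM sizes over genes with a mean count of 10 or more and Benjamini-Hochberg adjustment at 0.05. The test was first tried on simulated data. The test compares libraries, not conditions. The spread was taken from edgeR dispersions with an intercept only. Near-identical copies were found with blastn 2.17.0 in the transcripts of the annotation. Python 3.11.15, scipy 1.17.1 and R 4.3.3 were used. Alternatives were other library sizes (DESeq2 1.42.0 size factors, total counts), count filters, pseudocounts, detection limits, list means, the second quantification, TPM rescaled to nuclear protein-coding genes and each replicate left out.

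The members and lists were chosen with earlier results of these data known. Members named are the 4 highest and 2 lowest of each structural group, Mrps36, the S18 paralogues, 7 genes chosen for their function, the 6 with the largest ratio between libraries among those called, the 6 that differed most between quantifications and the 6 with the lowest protein_coding share; of other lists, the 3 highest and 2 lowest. Mrpl10, Mrps25, Mrpl46, Mrpl47, Mrps11, Mrpl53, Mrps35, the members named as not called and those in head-to-head pairs were named after their values were seen.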

Additional observations from a re-analysis of the deposited data

Results flagged for a closer look

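Processed pseudogenes that are near-identical copies of members are outside the comparisons above, and 6 of them had an expected count above 3, the limit that a count of 0 allows, in at least 1 library. Mrpl23-ps1, the copy of Mrpl23, had 143.47, 331.29 and 201.56 expected counts in replicates 1, 2 and 3, against 159.53, 486.71 and 377.44 for Mrpl23. The other 5 were close to the limit: Gm13552, a copy of Mrps18b, reached 5.86, Mrpl48-ps reached 4.56, Gm6419, a copy of Mrpl42, reached 4.01, Gm6304, a copy of Mrpl27, reached 3.74 and AC154457.3, a copy of Mrps10, reached 3.14 expected counts. These 5 were under 1% of the counts of the member and its copy together in every library. Whether reads of the member were assigned to the copy, or the copy was transcribed, was not tested. These limits cover counting error only.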

How the results depend on the processing

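No paired analysis was possible because the 3 libraries form 1 group. No list difference or library ratio changed sign under the alternatives run for it; motif, head-to-head and length values were computed in 1 way only. The difference between large-subunit and small-subunit genes ranged from 0.39 to 0.51 with each replicate left out and no longer exceeded 3 SD without replicate 3 (0.47). The difference between genes with a bacterial homologue and mitochondria-specific genes, 0.40 and within 3 SD, ranged from 0.34 to 0.48 with each replicate left out. It exceeded 3 SD without replicate 1 (0.48), with list means (0.31) and in the second quantification (0.35). The differences between members and the other 5 lists kept their sign and exceeded 3 SD under every alternative run. Members detected numbered 45 at a limit of 10 TPM, 69 at 5 TPM and 77 in the second quantification. The chi-square test called 59 members with DESeq2 size factors (65.6% of all genes tested), 66 with total counts (67.9%), 59 with no filter (41.1%), 63 at a mean count of 100 or more (74.3%) and 76 in the second quantification (72.8%). With each replicate left out it called 31 to 54 members: 46 without replicate 1 (53.2% of genes), 31 without replicate 2 (44.3%) and 54 without replicate 3 (44.2%). The members' share was above that of all genes in each of these except without replicate 2, where it was 39.7%. None of these settings matched the background to the members' counts. The median ratio of replicate 3 was -0.14 in the second quantification, and the median protein_coding share was 96.5% there. All 39 named members' levels moved by more than their SD in the second quantification and with rescaled TPM, which change the scale; the cause of the other changes was not tested. An alternative chosen after seeing the data, leaving out Mrpl23, gave 0.47 for large minus small subunit and 0.42 for bacterial homologue minus mitochondria specific. The planned comparison of S18 protein sequences was not run. The counts of 93 or more behind each member limit the precision of the lowest ones.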
